A study of Mus musculus with 12 samples.

Results

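The 10 genes described here encode ligands and receptors of vascular endothelial growth factor (VEGF) and angiopoietin signalling, together with Pecam1, an adhesion protein used as a marker of endothelial cells. They were taken from the deposited tables by gene name, from a list drawn up with earlier results of these data known. All 10 were found among 55491 table entries, and all 10 passed the filter on low counts, which left 17909 genes for testing. The lungs came from wild-type C57BL/6J male mice aged 10 weeks, and every mouse had received oropharyngeal bleomycin (0.0125 U per mouse, about 0.5 U/kg), an agent used to cause lung injury followed by fibrosis. Lungs of 4 mice were taken at day 14 with no treatment. The other groups were 4 mice given intravenous saline and 4 mice given intravenous nanoparticles, with lungs taken at day 21. The nanoparticles had a poly(lactide-co-glycolide) core coated with poly(ethylene-alt-maleic anhydride) and were injected at 2 mg per dose, daily from day 14 to day 18 (5 doses). No uninjured lung is in the comparison, so each level is set against bleomycin-injured lungs. Both day 21 groups had been injected and the day 14 mice had not, so day and injection cannot be told apart in comparisons with day 14. The libraries were made from polyA RNA of whole lung lobes, in which fewer cells of a type and less RNA per cell cannot be told apart.

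VEGF-A, secreted mainly by epithelial cells in the alveolus, signals through the receptor tyrosine kinase Kdr (VEGF receptor 2) on endothelial cells and sustains the capillary bed. Flt1 (VEGF receptor 1) binds the same ligand tightly with weak kinase activity and is known as a decoy, while VEGF-C acts mostly through Flt4 (VEGF receptor 3), a receptor of lymphatic endothelium. Angiopoietin 1, made by cells that surround vessels, activates the receptor Tek (Tie2) and stabilises vessels. Angiopoietin 2, released by endothelial cells, acts on the same receptor as a context-dependent antagonist, and Tie1 is a related receptor that modifies Tek signalling.

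Total expected counts ran from 24138582 to 42714693 per library, and the members had from 376 (Vegfc) to 28021 (Vegfa) counts in a library. Markers of lung were present in every group: Sftpc of alveolar type 2 cells, Ager of alveolar type 1 cells and Cldn5 of endothelium had mean levels of at least 32558, 2218 and 345 TPM, a length-scaled share of each library's transcripts. The third nanoparticle library stood apart in the sum of 12 leukocyte markers. This sum was 17909 TPM there, against 10999 to 13281 TPM in the other 11 libraries. The neutrophil gene S100a8 was at 322 CPM (counts scaled by library size) there and at 8.12 to 29.97 CPM elsewhere. In TPM, the neutrophil genes S100a8 and S100a9, both part of that sum, reached 2251 and 2560 in the nanoparticle group. Their highest levels in the other groups were 208 and 270 TPM. Without nanoparticle replicate 3, 5 of the 10 members were called higher in nanoparticle lungs against day 14 (4 with it), and 0 differed between nanoparticle and vehicle lungs, as with it. Over all genes, 2636 were called in nanoparticle lungs against day 14 with every library and 1363 to 2934 without single libraries. The count without replicate 3 alone lies in this range and is not given here, so the 5 members have no matching share of all genes. Day 14 replicate 2 was also far from its group. Its chi-square per degree of freedom of counts, against each other library of its group, was 26.4 to 33.7. That of nanoparticle replicate 3 was 24.1 to 28.8.

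Of the 4 ligands, 3 were called higher at day 21 than at day 14, and of the receptors only Tek was called. Ligands and receptors were not tested against each other. The receptor Kdr, not called, differed from day 14 by 0.38 and 0.41 on the log2 scale. These differences were no smaller than those of the called ligand Vegfa (0.34 and 0.33), but the spread of Kdr was wider. Vegfa, Angpt1 and Angpt2 were higher at day 21 than at day 14 in vehicle-treated lungs, by 1.27-, 1.28- and 1.59-fold. The same ligands were higher in nanoparticle-treated lungs than at day 14, by 1.25-, 1.34- and 1.53-fold, and there Tek was also higher, by 1.31-fold. Vegfc, Kdr, Flt1, Flt4, Tie1 and Pecam1 did not pass in any comparison, and 0 of the 10 genes differed between nanoparticle and vehicle lungs. The calls come from edgeR's quasi-likelihood test, with p-values adjusted by the Benjamini-Hochberg method over all 17909 genes and a threshold of 0.05. Both comparisons with day 14 use the same 4 day 14 libraries, so they are not independent of each other.

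For vehicle against day 14, 3 of 10 members were called, all higher, where 10.3% of all genes tested were called, 3.79% higher and 6.51% lower. For nanoparticles against day 14, 4 of 10 members were called, all higher, where 14.7% of all genes were called, 6.16% higher and 8.56% lower. The count of members called was 1 without vehicle replicate 1 in the first comparison and 1 without nanoparticle replicate 4 in the second. The median log2 difference of the 10 members was 0.19 in the first comparison and 0.25 in the second, beside 0.0031 and 0.0062 over all genes tested. In each of them 8 of 10 members had a difference above 0, beside 50.6% and 51.1% of all genes, and 6 of 10 had an unadjusted p under 0.05, beside 27.3% and 30.8%. Groups that did not overlap were found for 3 members in each comparison, all higher at day 21. Over all genes this held for 17.9% with vehicle (7.20% higher, 10.7% lower) and 19.0% with nanoparticles (8.47% higher, 10.6% lower).

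RefSeq promoter entries for GRCm38.p6 matched 7 of the 10 members, with none for Angpt1, Angpt2 or Pecam1. The 250 bases before the start site are shown for Vegfa, the most abundant member, and Tek, which have promoter entries and were called higher, and for the VEGF receptors Kdr and Flt1, which were not called. Capitals mark the core of ETS family sites, GGAA or its complement TTCC; ETS factors are known regulators of endothelial genes.
Vegfa (chr17:46032378-46032627, minus strand): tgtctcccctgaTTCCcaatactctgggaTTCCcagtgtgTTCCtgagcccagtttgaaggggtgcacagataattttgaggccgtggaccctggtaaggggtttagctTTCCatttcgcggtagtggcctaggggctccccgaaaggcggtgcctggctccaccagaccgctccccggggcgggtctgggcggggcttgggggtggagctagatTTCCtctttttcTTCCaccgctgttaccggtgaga
Tek (chr4:94739039-94739288, plus strand): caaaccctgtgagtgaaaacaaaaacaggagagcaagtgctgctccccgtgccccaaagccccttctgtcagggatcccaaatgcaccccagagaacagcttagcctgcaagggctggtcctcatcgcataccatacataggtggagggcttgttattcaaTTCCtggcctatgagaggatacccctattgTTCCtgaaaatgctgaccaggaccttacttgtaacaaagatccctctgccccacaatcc
Kdr (chr5:75978456-75978705, minus strand): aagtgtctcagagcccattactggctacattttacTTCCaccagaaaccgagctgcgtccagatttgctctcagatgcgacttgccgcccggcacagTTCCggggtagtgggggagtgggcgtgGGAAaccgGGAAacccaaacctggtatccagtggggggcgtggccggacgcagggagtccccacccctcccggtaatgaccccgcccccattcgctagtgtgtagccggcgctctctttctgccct
Flt1 (chr5:147726012-147726261, minus strand): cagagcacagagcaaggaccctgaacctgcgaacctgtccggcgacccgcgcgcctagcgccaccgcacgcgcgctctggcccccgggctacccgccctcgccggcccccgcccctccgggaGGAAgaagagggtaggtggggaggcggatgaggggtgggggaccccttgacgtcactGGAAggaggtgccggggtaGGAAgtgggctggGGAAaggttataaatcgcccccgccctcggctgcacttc
The core occurred 6 times in the Vegfa window, 2 times in that of Tek and 4 times each in those of Kdr and Flt1. Of 32536 promoter windows of this length, 93.4% held it at least once on either strand, with a median of 3, so the matches do not set these genes apart. The core of the hypoxia response element, ACGTG or CACGT, was in none of the 4 windows shown and in 16.7% of all windows. The TATAAA motif or its complement TTTATA was found in the Flt1 window, 25 bases before the start, and in none of the other 3 windows shown; 12.3% of all windows held it. Vegfa has a further promoter entry that lies inside the gene and is not shown; its window held the hypoxia response core at 1 place, 206 bases before that start.

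Scaled for transcript length, Vegfa had the highest level of the 10 genes in every group and Angpt2 the lowest. At day 14 Vegfa averaged 451 ± 41.4 TPM (SD, n = 4) and Pecam1 325 ± 21.3 TPM. Tie1 (109.9 ± 6.54 TPM), Tek (101.4 ± 8.68 TPM) and Kdr (80.3 ± 12.5 TPM) followed, and the ranges of neighbours in this order overlapped. Flt1 averaged 54.5 ± 8.89 TPM and Angpt1 26.6 ± 2.14 TPM, each apart from its neighbours. Flt4 (16.1 ± 1.35 TPM) and Vegfc (13.5 ± 1.49 TPM) overlapped, and Angpt2 was at 7.10 ± 1.35 TPM, below both. At day 21 Tek stood above Tie1 in the order of means. Their ranges overlapped in vehicle lungs (124 ± 14.4 and 112 ± 8.53 TPM) and were apart in nanoparticle lungs (133 ± 14.0 and 108 ± 9.75 TPM). Angpt2 and Vegfc overlapped in both day 21 groups, at 11.3 ± 1.08 and 11.8 ± 1.17 TPM with vehicle and 10.9 ± 2.26 and 11.8 ± 0.921 TPM with nanoparticles.

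**Figure D1:**
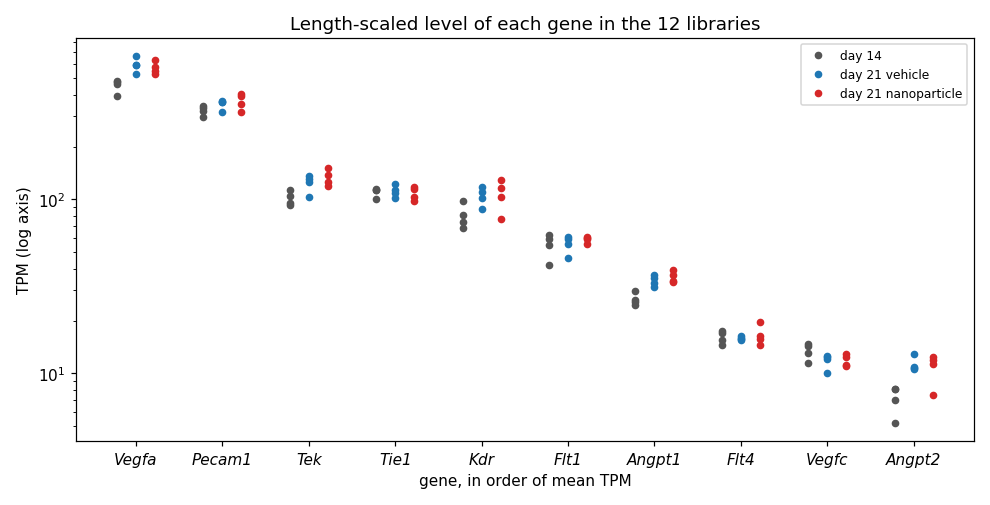
Length-scaled levels (TPM, log axis) of the 10 genes in the 12 libraries, each point 1 library, coloured by group. Vegfa lies highest at 390 to 664 TPM and Angpt2 lowest at 5.22 to 12.9 TPM.

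Vegfa (ENSMUSG00000023951, GRCm38 chromosome 17, 46016993 to 46032369, minus strand, protein-coding in GENCODE M21) encodes the main ligand of endothelial growth. In CPM, scaled by library with TMM (trimmed mean of M-values), its day 14 libraries were at 626, 541, 627 and 648. Vehicle libraries were at 859, 752, 770 and 715 CPM, and nanoparticle libraries at 760, 743, 706 and 849 CPM. All 8 day 21 libraries lay above all 4 day 14 libraries, and the day 21 groups overlapped. Vegfa was higher by 0.34 on the log2 scale (SE 0.081, adjusted p = 0.0188 in edgeR) with vehicle and by 0.33 (SE 0.081, adjusted p = 0.0179) with nanoparticles. The vehicle call was lost without vehicle replicate 1 (0.30, adjusted p = 0.0611) and the nanoparticle call without nanoparticle replicate 4 (0.27, adjusted p = 0.0616). Without nanoparticle replicate 3 the second difference was 0.37 (adjusted p = 0.0109). Alveolar type 2 cells also make Vegfa, and their 12 markers summed to 40365 to 45965 TPM at day 14, 46888 to 54152 TPM with vehicle and 47276 to 49239 TPM with nanoparticles. Of these markers 3 rose with vehicle and 2 with nanoparticles, beside 3.79% and 6.16% of all genes, and none fell. Their part in the Vegfa difference was not tested.

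Vegfc (ENSMUSG00000031520, chromosome 8, 54077606 to 54187096, plus strand), the ligand of lymphatic growth, went the other way without passing the test. Its levels were 19.9, 17.3, 20.3 and 20.4 CPM at day 14. Vehicle lungs gave 17.0, 14.6, 18.2 and 18.5 CPM and nanoparticle lungs 18.2, 15.6, 16.5 and 17.3 CPM. Both day 21 groups overlapped the day 14 range only through day 14 replicate 2, the lowest of its group. The log2 difference from day 14 was −0.19 (95% confidence interval −0.37 to −0.0065, adjusted p = 0.168 in edgeR) with vehicle and −0.20 (−0.39 to −0.020, adjusted p = 0.122) with nanoparticles. The latter was −0.18 without nanoparticle replicate 3 (adjusted p = 0.205).

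Kdr (ENSMUSG00000062960, chromosome 5, 75932827 to 75978458, minus strand), the main signalling receptor for VEGF-A, varied widely between mice. Day 14 libraries were at 267, 291, 313 and 365 CPM. Vehicle libraries were at 442, 335, 389 and 444 CPM, and nanoparticle libraries at 390, 499, 297 and 453 CPM. The ranges overlapped through day 14 replicate 4 at the top of its group and through vehicle replicate 2 and nanoparticle replicate 3 at the bottom of theirs. The log2 difference was 0.38 with vehicle (SE 0.15, adjusted p = 0.119 in edgeR) and 0.41 with nanoparticles (SE 0.15, adjusted p = 0.0828), neither past the threshold. Without nanoparticle replicate 3, the library with the high S100a8 level, Kdr passed in both comparisons (0.39, adjusted p = 0.0408, and 0.55, adjusted p = 0.0103 in edgeR). That library is in neither group of the vehicle comparison, where the difference stayed near 0.38, but it enters the shared estimate of spread. With vehicle, Kdr passed under none of the 7 other settings (adjusted p = 0.0541 to 0.266 over edgeR, DESeq2 and limma). With nanoparticles it also passed without day 14 replicate 4 (0.51, adjusted p = 0.0474 in edgeR). Of the 7 other settings it passed there only in DESeq2 with all libraries (0.42, adjusted p = 0.0323).

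Flt1 (ENSMUSG00000029648, chromosome 5, 147561604 to 147726011, minus strand), the VEGF-A-binding receptor with weak kinase activity, was at 186 to 260 CPM at day 14, 191 to 266 CPM with vehicle and 234 to 271 CPM with nanoparticles. Day 14 replicate 2 and vehicle replicate 2 were the lowest of their groups. Differences from day 14 were 0.0088 (95% confidence interval −0.24 to 0.26) and 0.11 (−0.14 to 0.36), with adjusted p = 0.971 and 0.546 in edgeR. Flt4 (ENSMUSG00000020357, chromosome 11, 49609263 to 49652739, plus strand), the lymphatic receptor for VEGF-C, was at 59.9 to 68.9 CPM at day 14, 61.7 to 67.7 CPM with vehicle and 57.7 to 79.9 CPM with nanoparticles. Its highest level, 79.9 CPM, was in nanoparticle replicate 3. Differences from day 14 were −0.019 (−0.20 to 0.16, adjusted p = 0.907 in edgeR) and 0.040 (−0.14 to 0.22, adjusted p = 0.788). Without nanoparticle replicate 3 the nanoparticle differences were 0.11 for Flt1 (adjusted p = 0.593) and −0.041 for Flt4 (adjusted p = 0.725), so the sign of Flt4 rested on that library.

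Angpt1 (ENSMUSG00000022309, chromosome 15, 42424723 to 42676977, minus strand), the activating ligand of Tek, had the smallest adjusted p of the 10 genes in both comparisons with day 14. Its day 14 libraries were at 71.2, 67.5, 71.4 and 78.4 CPM. Vehicle libraries were at 93.3, 83.8, 98.8 and 92.9 CPM and nanoparticle libraries at 89.5, 98.7, 91.3 and 107.5 CPM. Every day 21 library was above every day 14 library. The rise was 0.35 on the log2 scale (SE 0.072, adjusted p = 0.00938 in edgeR) with vehicle and 0.42 (SE 0.072, adjusted p = 0.00262) with nanoparticles. The latter was 0.46 without nanoparticle replicate 3 (adjusted p = 0.00230). Both calls held without each library in turn (adjusted p = 0.00607 to 0.0360 and 0.00219 to 0.0118). The antisense gene Gm17473 is annotated over Angpt1 on the opposite strand, and the strand setting of the counting is not given in the sources used here. Gm17473 averaged 0.842 ± 0.258 CPM at day 14, 1.02 ± 0.187 CPM with vehicle and 1.16 ± 0.238 CPM with nanoparticles.

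Angpt2 (ENSMUSG00000031465, chromosome 8, 18690263 to 18741562, minus strand), the endothelial ligand that can oppose angiopoietin 1, showed the largest fold change of the members at the lowest level. Its day 14 libraries were at 11.9, 18.4, 15.7 and 17.7 CPM. Vehicle libraries were at 28.2, 23.5, 24.3 and 24.8 CPM, all above day 14. Nanoparticle libraries were at 25.0, 27.9, 16.9 and 27.2 CPM, with 3 above day 14 and replicate 3 inside the day 14 range. Angpt2 was higher by 0.67 (SE 0.16, adjusted p = 0.0200 in edgeR) with vehicle and by 0.62 (SE 0.16, adjusted p = 0.0225) with nanoparticles. Leaving out day 14 replicate 3 ended the vehicle call (adjusted p = 0.0610), as did leaving out vehicle replicate 1 (adjusted p = 0.0631). The nanoparticle call ended when day 14 replicate 1 or 3, or any nanoparticle library but the third, was left out (adjusted p = 0.0515 to 0.0671). It was also lost with no filter on low counts and with 2 groups in the fit (adjusted p = 0.0579 and 0.0547), while without nanoparticle replicate 3 it was 0.77 (adjusted p = 0.00201). The annotated span of Angpt2 overlaps that of Mcph1, a gene of the opposite strand. Overlap of their exons was not checked and the strand setting is not known, so whether their reads can be confused is open. The level of Mcph1 was 8.28 ± 0.489 CPM at day 14, 6.57 ± 0.952 CPM with vehicle and 7.03 ± 0.659 CPM with nanoparticles. Mcph1 thus differed in the opposite direction to Angpt2 (−0.33, adjusted p = 0.0751, and −0.24, adjusted p = 0.173), without passing.

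Tek (ENSMUSG00000006386, chromosome 4, 94739289 to 94874976, plus strand), the receptor of both angiopoietins, passed only in the comparison of nanoparticle lungs with day 14. Its day 14 libraries were at 275, 266, 297 and 310 CPM, and its nanoparticle libraries at 335, 387, 357 and 432 CPM, all above day 14. Vehicle libraries were at 368, 287, 366 and 368 CPM, with replicate 2 inside the day 14 range and the other 3 above it. The rise with nanoparticles was 0.39 (SE 0.096, adjusted p = 0.0158 in edgeR) and was lost without nanoparticle replicate 4 (0.32, adjusted p = 0.0549), while without replicate 3 it was 0.43 (adjusted p = 0.0140). With vehicle the difference was 0.27 (SE 0.096, adjusted p = 0.0826), and it passed without vehicle replicate 2 (0.36, adjusted p = 0.0237) and in DESeq2 (0.28, adjusted p = 0.0361). The direct test between nanoparticle and vehicle lungs gave 0.12 (95% confidence interval −0.084 to 0.33, adjusted p = 0.999), so the 2 differences from day 14 were not shown to differ.

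Tie1 (ENSMUSG00000033191, chromosome 4, 118471191 to 118490061, minus strand), the relative of Tek with no well-established ligand of its own, was at 264 to 296 CPM at day 14, 260 to 308 CPM with vehicle and 251 to 306 CPM with nanoparticles. The 3 ranges overlapped almost wholly. Differences from day 14 were 0.015 (95% confidence interval −0.15 to 0.18) and −0.029 (−0.19 to 0.13), with adjusted p = 0.921 and 0.832 in edgeR. Pecam1 (ENSMUSG00000020717, chromosome 11, 106654217 to 106750628, minus strand), the junctional adhesion marker, was at 615 to 685 CPM at day 14, 638 to 775 CPM with vehicle and 647 to 829 CPM with nanoparticles. It differed from day 14 by 0.12 (−0.067 to 0.30, adjusted p = 0.402 in edgeR) and 0.17 (−0.014 to 0.35, adjusted p = 0.198). Without nanoparticle replicate 3 the nanoparticle differences were 0.029 for Tie1 (adjusted p = 0.833), a change of sign, and 0.24 for Pecam1 (adjusted p = 0.0581).

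**Figure D2:**
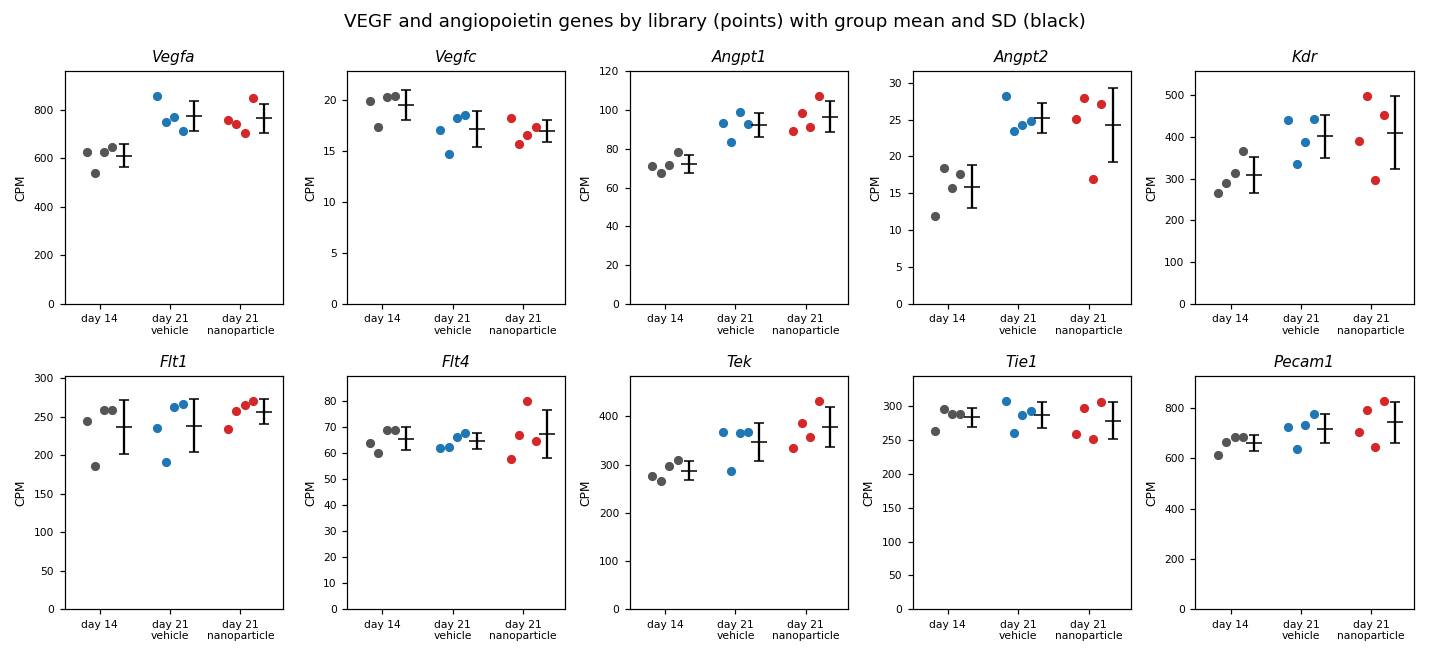
TMM-scaled level (CPM, linear axes from 0) of each gene in the 12 libraries, with the mean and SD of each group of 4 as black bars. For Vegfa and Angpt1 all day 21 points lie above all day 14 points, while Tie1 and Flt4 overlap throughout.

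**Figure D3:**
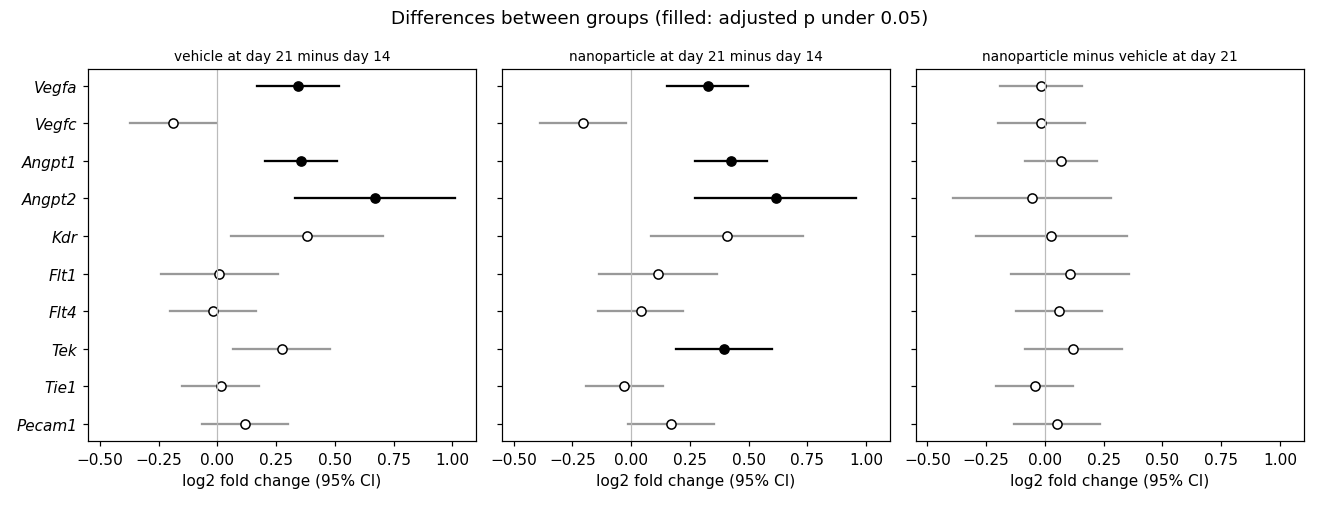
Log2 fold change with 95% confidence interval for each gene in the 3 comparisons; filled circles passed an adjusted p of 0.05 in edgeR. Angpt2 reaches 0.67 and 0.62 against day 14, and every interval in the comparison of nanoparticles with vehicle includes 0.

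Ratios within a library do not depend on library scaling, and 9 were compared in the 3 comparisons. None of the 27 tests passed after Benjamini-Hochberg adjustment. They were exact two-sided permutation tests of 4 against 4, where the smallest possible p is 0.0286 and the smallest adjusted p reached was 0.210. A pass needed many of the 27 tests to reach that smallest p together, so the lack of one does not show unchanged ratios. An unadjusted p under 0.05 was found in 3 tests. These 3 are given as values. Tek relative to Pecam1 averaged −1.21 ± 0.0797 (log2 ratio of counts, SD, n = 4) at day 14, −1.05 ± 0.0764 with vehicle and −0.98 ± 0.0984 with nanoparticles. All 4 nanoparticle libraries were above all 4 of day 14 (difference 0.23, exact permutation p = 0.0286). Tie1 relative to Pecam1 lay in the opposite order, at −1.22 ± 0.0368, −1.32 ± 0.0728 and −1.42 ± 0.0352. Its nanoparticle libraries were all below day 14 (difference −0.20, exact permutation p = 0.0286) and differed from vehicle by −0.096 (exact permutation p = 0.0571). Vegfc relative to Flt4 was −1.75 ± 0.0461 at day 14 and −1.92 ± 0.112 with vehicle, all 4 lower (difference −0.17, exact permutation p = 0.0286), and −1.98 ± 0.262 with nanoparticles. Without nanoparticle replicate 3 the nanoparticle difference from day 14 was 0.19 for Tek to Pecam1 and −0.21 for Tie1 to Pecam1 (exact permutation p = 0.0286 for each).

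The ratio of Angpt2 to Angpt1, often read as a balance of Tek ligands, had wide groups. Per length it was 0.203, 0.328, 0.265 and 0.273 at day 14, 0.365, 0.340, 0.296 and 0.324 with vehicle and 0.337, 0.339, 0.224 and 0.305 with nanoparticles. Angpt1 transcripts thus outnumbered Angpt2 transcripts in every library. On the log2 scale of counts the vehicle group differed from day 14 by 0.33 (exact permutation p = 0.0857) and the nanoparticle group by 0.18 (exact permutation p = 0.400), or 0.32 without nanoparticle replicate 3 (exact permutation p = 0.114). The ratio of Kdr to Flt1 was 1.25 to 1.78 per length at day 14, 1.69 to 2.14 with vehicle and 1.28 to 2.21 with nanoparticles. Kdr transcripts therefore exceeded Flt1 transcripts in all libraries, and the log2 ratio differed from day 14 by 0.37 (exact permutation p = 0.0571) and 0.27 (exact permutation p = 0.257), the latter 0.43 without nanoparticle replicate 3 (exact permutation p = 0.0571). Vegfa relative to Kdr differed from day 14 by −0.039 and −0.066 (exact permutation p = 0.771 for each).

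**Figure D4:**
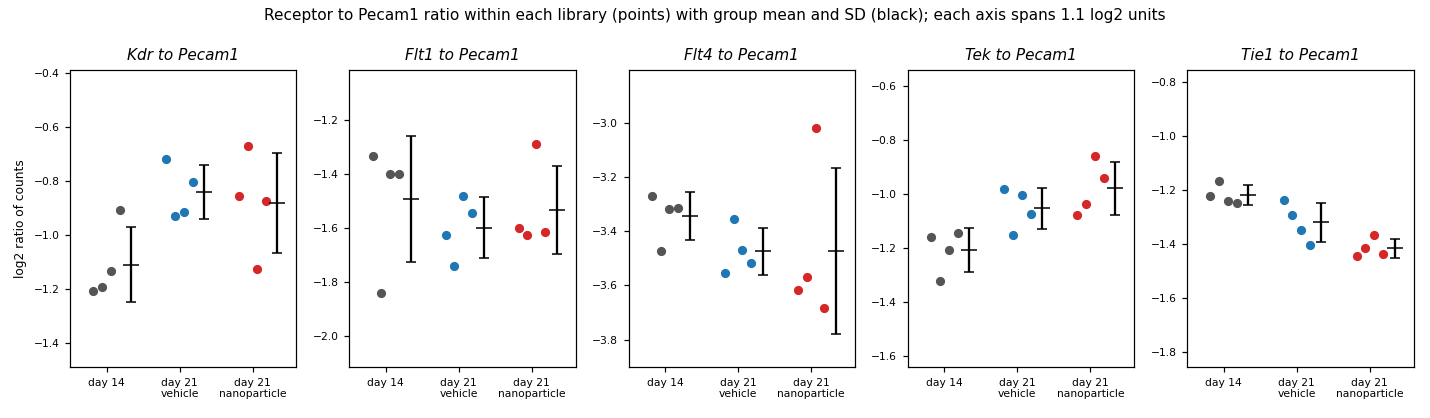
Log2 ratio of counts of each receptor to Pecam1 in the 12 libraries, with mean and SD of each group of 4 as black bars; each vertical axis spans the same number of log2 units. Tek to Pecam1 lies higher (mean −0.98) and Tie1 to Pecam1 lower (mean −1.42) in nanoparticle lungs than at day 14 (−1.21 and −1.22).

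For nanoparticles against vehicle at day 21, edgeR called 0 of 17909 genes, 0 of them members (0% of all genes called). At an unadjusted p under 0.05 it gave 762 genes (4.25%) and 0 members, and DESeq2 called 19 genes, 0 of them members. The member differences ran from −0.054 (Angpt2) to 0.12 (Tek), with 6 of 10 above 0 (50.8% of all genes). The groups overlapped for all 10 members, and over all genes 3.55% did not overlap (1.80% higher, 1.75% lower). The 95% confidence intervals were −0.19 to 0.16 for Vegfa, −0.084 to 0.22 for Angpt1 and −0.21 to 0.12 for Tie1. Those of Kdr (−0.29 to 0.35) and Angpt2 (−0.39 to 0.28) were wider. Differences inside these bounds remain compatible with the data, and the bounds are not limits of detection. The intervals of Kdr and Angpt2 were −0.11 to 0.42 and −0.18 to 0.35 without nanoparticle replicate 3.

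Of 41 further genes of the pathway and its near regulators and targets, 40 could be tested. In vehicle lungs against day 14, 1 rose and 4 fell (beside 10.3% of all genes called). The same counts held for nanoparticles against day 14 (beside 14.7%). The median log2 difference of the list was 0.041 and 0.078. With vehicle, the count of list genes called was 2 without day 14 replicate 3 or without vehicle replicate 1, and 3 without day 14 replicate 4. With nanoparticles it was 9 without day 14 replicate 4 or nanoparticle replicate 3, and 11 without vehicle replicate 2. The shares of 10.3% and 14.7% belong to the fit of all 12 libraries and are not the background of these counts. Over all genes, the number called without single libraries ran from 719 to 2162 with vehicle and from 1363 to 2934 with nanoparticles. Esm1, a proteoglycan of endothelial tip cells that is a known target of VEGF-A signalling, rose from 8.09 ± 1.42 CPM at day 14 to 16.8 ± 4.57 CPM with vehicle (1.06 on the log2 scale, adjusted p = 0.0159 in edgeR). With nanoparticles Esm1 was at 15.6 ± 4.39 CPM (0.95, adjusted p = 0.0193). Ccbe1, which promotes the processing of VEGF-C, fell by 0.41 with vehicle (adjusted p = 0.0149 in edgeR) and by 0.52 with nanoparticles (adjusted p = 0.00354). Dok2, an adaptor that binds Tek and is also abundant in blood cells, fell by 0.55 (adjusted p = 0.00954 in edgeR) and 0.60 (adjusted p = 0.00415). The VEGF receptor adaptor Shb fell by 0.26 and 0.31, and the angiopoietin-like gene Angptl2 fell by 0.33 and 0.40 (adjusted p = 0.0339, 0.0112, 0.0208 and 0.00596 in edgeR). All 5 nanoparticle calls held without nanoparticle replicate 3 (adjusted p = 0.00208 to 0.0160). Esm1 lost both calls with no filter on low counts (adjusted p = 0.0505 and 0.0672) and without day 14 replicate 1 (0.0509 and 0.0615) or 3 (0.0561 and 0.0602). Its nanoparticle call was also lost without nanoparticle replicate 2 (adjusted p = 0.0540) or 4 (0.0552). The vehicle call of Shb was lost without any of 7 libraries (day 14 replicate 2, 3 or 4, vehicle replicate 1, 3 or 4, or nanoparticle replicate 1; adjusted p = 0.0554 to 0.107) and under 6 other settings. The vehicle call of Ccbe1 was lost without day 14 replicate 3 (adjusted p = 0.0523) or vehicle replicate 1 (0.0534), and that of Angptl2 without day 14 replicate 4 (0.0513) or vehicle replicate 1 (0.0526). Dok2 lost both calls with limma on TPM (adjusted p = 0.111 to 0.180), and so did the vehicle call of Ccbe1 (0.0524 and 0.0591).

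Among genes closest to the members, the co-receptor Nrp1 averaged 256 ± 39.8 CPM at day 14, 314 ± 33.7 CPM with vehicle and 320 ± 25.0 CPM with nanoparticles (0.29 and 0.32, adjusted p = 0.0980 and 0.0620 in edgeR). Ptprb, the phosphatase that restrains Tek, averaged 849 ± 174, 1062 ± 198 and 1153 ± 99.4 CPM (0.32 and 0.44, adjusted p = 0.210 and 0.0796 in edgeR). Neither passed, though both did with nanoparticles in DESeq2 (adjusted p = 0.0284 and 0.0283), and Nrp1 did without nanoparticle replicate 3 (0.37, adjusted p = 0.0414 in edgeR). Of the remaining VEGF ligands none passed. Pgf, a ligand of Flt1, differed from day 14 by −0.40 with vehicle (95% confidence interval −0.77 to −0.035, adjusted p = 0.145 in edgeR) and by −0.32 with nanoparticles (−0.68 to 0.052, adjusted p = 0.228). Vegfb differed by 0.024 and 0.018 and Vegfd by −0.13 and −0.11 (adjusted p = 0.878, 0.912, 0.443 and 0.510 in edgeR). Hypoxia is the classical inducer of Vegfa. In a list of 18 genes of hypoxia-inducible factors and their targets, 17 could be tested. In each comparison with day 14, 1 rose and 1 fell, with medians of −0.16 and −0.083. Over all genes 3.79% rose and 6.51% fell with vehicle, and 6.16% and 8.56% with nanoparticles. Differences were above 0 for 4 of 17 with vehicle and 5 with nanoparticles, beside 50.6% and 51.1% of all genes. An unadjusted p under 0.05 in edgeR was found for 9 and 5, beside 27.3% and 30.8%. Groups did not overlap for 6 with vehicle (1 higher) and 2 with nanoparticles (2 higher), beside 17.9% and 19.0%. The lipoprotein receptor Vldlr rose in both (0.34 and 0.36, adjusted p = 0.0102 and 0.00469 in edgeR). Ankrd37 was at −1.22 with vehicle (adjusted p = 0.0361 in edgeR) and −1.001 with nanoparticles (0.0602), and the stress gene Ddit4 at −1.05 (0.0643) and −1.24 (0.0314). The direct tests between nanoparticle and vehicle lungs gave 0.21 for Ankrd37 and −0.19 for Ddit4 (adjusted p = 0.999 for each), so neither fall was shown to be particular to a treatment. The Ankrd37 call with vehicle was lost without day 14 replicate 1 or 3, vehicle replicate 1, 3 or 4, or nanoparticle replicate 1 (adjusted p = 0.0504 to 0.101). The Ddit4 call with nanoparticles was lost without day 14 replicate 1 or 3 or nanoparticle replicate 1, 2 or 4 (adjusted p = 0.0620 to 0.0821), and without nanoparticle replicate 3 Ankrd37 passed there too (−1.45, adjusted p = 0.00345).

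Markers of the cell types that make these genes were summed in each library. The 18 pan-endothelial markers summed to 3074 to 3610 TPM at day 14, 3286 to 4077 TPM with vehicle and 3618 to 4078 TPM with nanoparticles. Of these markers 1 and 2 passed against day 14, all higher, with median differences of 0.11 and 0.16. Over all genes, 3.79% were called higher and 6.51% lower with vehicle, and 6.16% and 8.56% with nanoparticles. These shares are the background for each list of markers in this paragraph. Among general capillary markers 1 and 2 of 10 rose, and among aerocyte capillary markers 0 and 1 of 12. Alveolar type 1 markers, from cells known to make Vegfa, summed to 6555 to 7262 TPM at day 14, 6580 to 6800 TPM with vehicle and 6391 to 6869 TPM with nanoparticles. Of 15 such markers 1 rose in each comparison, and 2 and 3 fell. Pericyte markers, from cells known to make Angpt1, summed to 756 to 889, 816 to 870 and 786 to 871 TPM, with 2 of 13 higher and 1 lower in each comparison. Of 10 lymphatic markers tested, 0 rose and 1 fell with vehicle, and 1 rose and 1 fell with nanoparticles. Platelet markers, from cells that carry Pecam1 and angiopoietin 1, summed to 57.5 to 70.8 TPM at day 14, 60.3 to 85.5 TPM with vehicle and 85.1 to 117 TPM with nanoparticles. Against day 14, 0 of 12 were called higher with vehicle (11 above 0, median 0.46) and 9 of 12 with nanoparticles (12 above 0, median 1.19). The direct test of nanoparticles against vehicle called 0 of 12, with 12 above 0 and a median of 0.57. In it 8 of 12 had an unadjusted p under 0.05 in edgeR, beside 4.25% of all genes. Leaving out nanoparticle replicate 3, the counts with nanoparticles were 3 of 18 endothelial, 2 of 10 general capillary, 5 of 12 aerocyte and 8 of 12 platelet markers higher. The shares of all genes above belong to the fit of all 12 libraries. They are not the background of these last counts, for which no share is given here. No marker in these lists was at 0 in all 12 libraries. The part of these cell types in the differences of the members was not tested.

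The genes whose log2 CPM followed a member most closely over the 12 libraries were sought among 13180 genes with a mean log2 CPM of at least 1. This is a description with no test, and the libraries share their group differences and scaling. Kdr was followed by Ankrd50 (Pearson's r = 0.97), Gab1 (0.96) and Cdh5 (0.96), the last an endothelial junction protein, with r of 0.94 to 0.96 after each group's mean was removed. Vegfa was followed by Cdip1, Ccdc82 and Aox1 (0.97 each), and Vegfc by Mpp2 and Ripk1 (0.91 each), among others. Flt4 had the weakest leading r of these genes (Mmaa, 0.88), ahead of C3 and Ap3d1 (0.86 each). Tek was followed by Ogn, Add3 and Frmd4a (0.96 each), Angpt1 by Cat (0.98), Svip and Faim2 (0.97 each), and Angpt2 by Sox11, Glp1r and Ptch1 (0.96 each).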

How the data were processed

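Whole-lung polyA RNA of 12 mice had been sequenced, and 12 table columns were matched to mice by library name. Cutadapt 4.8, STAR 2.7.8a and RSEM 1.3.3 with genome build GRCm38 are named in the submitters' processing notes; the strand setting and annotation release are not given in the sources used here. Expected counts were deposited by the authors as whole numbers per gene and library. A deposited TPM table of the same genes and libraries, corrected for transcript length, was used for levels. The deposited FPKM table was not used here.

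Expected counts were fitted with edgeR 4.0.16 (R 4.3.3): filterByExpr by group (minimum count 10, minimum total 15), TMM scaling, one robust quasi-likelihood fit of all 12 libraries with a group term, two-sided contrasts and Benjamini-Hochberg adjustment at 0.05. Standard errors are the log2 fold change over the square root of F. Replicates are separate mice per the labels. The counting floor of 3 counts was 0.0718 to 0.125 CPM. Limma 3.58.1 (pseudocounts 1 and 0.1 on TPM) and DESeq2 1.42.0 were used for alternatives. The scripts were tested on simulated data. Locations are from GENCODE M21 and promoters from RefSeq GRCm38.p6.

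All 10 members were described; of the further lists, genes past the threshold were named by smallest adjusted p (up to 6 per list and comparison), and the 3 closest genes by correlation, leaving out predicted and clone-named genes, for 7 members; 1 of these genes is not reported here. Nrp1, Ptprb, Vegfb, Vegfd, Pgf and the genes overlapping members were named outside this rule after their values were seen. Members and lists were chosen with earlier results of these data known.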

Additional observations from a re-analysis of the deposited data

Results flagged for a closer look

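In groups of 4 libraries, the gap between the lowest or highest value and its neighbour was compared with the whole range of the group. Of 30 such groups (10 genes in 3 groups), 2 had a library farther out than Dixon's 95% critical value, and chance alone flags about 1 in 20. Tek in vehicle replicate 2, at 287 CPM, stood below the other vehicle libraries (366 to 368 CPM). Vegfc in day 14 replicate 2, at 17.3 CPM, stood below the other day 14 libraries (19.9 to 20.4 CPM).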

How the results depend on the processing

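Direction and call of Angpt1 held in both comparisons with day 14 under all 7 other settings and without each library in turn. Members called numbered 3, 4 and 0 (vehicle against day 14, nanoparticles against day 14, nanoparticles against vehicle). Without single libraries the counts ran from 1 to 4, 1 to 5 and 0 to 0, the lowest without vehicle replicate 1 and without nanoparticle replicate 4. Pathway genes called ran from 2 to 7 and 4 to 11, and all genes from 719 to 2162 and 1363 to 2934. Counts over all genes moved by more than 1.5 times without day 14 replicate 1 (1012 and 1570) or 3 (719 and 1363), vehicle replicate 1 (744) or 3 (866), and nanoparticle replicate 2 (1625) or 4 (1384). DESeq2 called 11 pathway genes for nanoparticles against day 14 and 19 genes in all for nanoparticles against vehicle. With no filter 3 pathway genes were called for vehicle. On log2(TPM + 1) with limma, 1051 and 1607 genes were called against day 14 and 2 pathway genes for vehicle, and on log2(TPM + 0.1) 995, 1577 and 2. With 2 groups in the fit 1672 genes were called for nanoparticles. Upper-quartile scaling gave 888 higher and 934 lower for vehicle, where TMM gave 679 and 1166. Direction changed for Flt4 with vehicle under upper-quartile scaling (0.0056), for Vegfc between nanoparticles and vehicle on TPM (0.0079 and 0.0087) and for Vegfa to Kdr with vehicle as a TPM ratio (0.0040). Leaving out single libraries changed direction, with these log2 ranges, for vehicle against day 14 in Flt1 (−0.080 to 0.11), Flt4 (−0.046 to 0.018) and Tie1 (−0.021 to 0.069); for nanoparticles against day 14 in Flt4 (−0.041 to 0.12) and Tie1 (−0.077 to 0.029); and for nanoparticles against vehicle in Angpt2 (−0.13 to 0.085), Flt4 (−0.033 to 0.12), Kdr (−0.083 to 0.15), Pecam1 (−0.0037 to 0.11), Tie1 (−0.092 to 0.0037), Vegfa (−0.071 to 0.036) and Vegfc (−0.084 to 0.024). Vegfb did so against day 14 with vehicle (−0.0030 to 0.066) and with nanoparticles (−0.042 to 0.061). Among ratios this held for Vegfa to Kdr (−0.11 to 0.049) with vehicle, Flt1 to Pecam1 (−0.15 to 0.016) and Vegfa to Kdr (−0.17 to 0.051) with nanoparticles against day 14, and Flt1 to Pecam1 (−0.015 to 0.11), Flt4 to Pecam1 (−0.15 to 0.073), Kdr to Flt1 (−0.21 to 0.056), Kdr to Pecam1 (−0.11 to 0.041), Vegfa to Kdr (−0.14 to 0.089) and Vegfc to Flt4 (−0.17 to 0.033) between the day 21 groups. None of these had passed a test, and the cause was not tested. With the replicate number as a replicate block, 3, 4 and 0 members and 1673, 2419 and 0 genes were called. Mice that share a number were different animals, and their deviations correlated at −0.074 to 0.15. Having 4 mice a group limits what can be seen for Angpt2 and Vegfc, and the part of depth was not tested.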

Other observations

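The ratio of Tek to Tie1 transcripts per length, chosen after the values were seen and given without a test, was 0.828 to 0.984 in the day 14 libraries. It was 1.01 to 1.16 with vehicle and 1.16 to 1.28 with nanoparticles. All day 21 libraries lay above 1 and all day 14 libraries below it.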
